A study of Mus musculus with 20 samples.

Results

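The Ms4a family genes followed here were 7 of the 21315 gene symbols in the deposited libraries: Ms4a4a, Ms4a4b, Ms4a4c, Ms4a6b, Ms4a6c, Ms4a6d and Ms4a7. They were taken by symbol and were followed across the 6 conditions of a bulk RNA-seq study of mouse microglia. The 20 libraries held RNA from sorted brain cells of mice aged 9 months on a C57BL/6 background, and each library was taken as 1 mouse. In 14 libraries the cells were CD45mid CD11b+ and not selected on C3aR, the receptor for complement fragment C3a, and came from 3 WT, 3 APP-KI, 3 C3aR-KO and 5 APP-KI; C3aR-KO mice. APP-KI mice carry humanized Aβ with the Swedish, Iberian and Arctic mutations in the endogenous App gene, so no transgene promoter drives it, and the C3aR-KO allele is a germline loss of C3ar1 that is not limited to microglia. The other 6 libraries, 3 WT and 3 APP-KI, came from a Td-tomato C3ar1 fl/fl reporter line sorted for the reporter and are labelled C3aR-positive. The unselected groups carried no reporter, so the reporter line, the sort and the library series cannot be told apart between the 2 sets.

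The MS4A genes encode small proteins that span the membrane several times and sit side by side as 1 cluster, in which common human variants are associated with the risk of Alzheimer disease. In macrophages MS4A4A associates with the beta-glucan receptor dectin-1, and the human MS4A locus is associated with the amount of soluble TREM2, the shed form of a microglial lipid receptor. Ms4a7 is used as a marker of border-associated macrophages, the macrophages of the meninges and perivascular spaces, whereas Ms4a4b is best known from T and NK cells. In bulk RNA a lower level can mean fewer cells of a type or less RNA per cell, and these cannot be told apart.

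Read totals ran from 13939559 to 30388941 in the labelled C3aR-positive libraries and from 42239056 to 76608464 in the unselected ones. Of the 21326 rows, 4694 to 6438 were listed at 0 in 14 libraries, but over 8000 in APP-KI replicate 4, C3aR-KO replicates 1 and 2 and APP-KI; C3aR-KO replicate 1, and only 107 and 3876 in APP-KI replicate 5 and APP-KI; C3aR-KO replicate 2. These 6 libraries stood apart and were all of the library series numbered 24 in the library names, in which only WT replicate 4 looked like the rest, so results on the unselected libraries are given with and without them. C3ar1 itself was lower in each of the 8 knockout libraries (scaled value 39.9 to 80.4, in units close to CPM, counts scaled to a fixed library total) than in each unselected library with the gene (165 to 388). It was also 37.6 to 81.2 in the 3 WT libraries labelled C3aR-positive, below the 276 to 340 of unselected WT (log2 difference −2.37 ± 0.31 SE, limma adjusted p = 0.00385), and 201 to 383 in the APP-KI ones. The C3ar1 level therefore went against the label in WT, and any direction between sorts is that of the libraries as labelled.

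The annotation (GENCODE M21 on GRCm38, the mm10 build of the study) places 19 Ms4a genes on chromosome 19, from 10962293 to 11640851, all present in the files. The 7 members lie within 284 kb, from 11321039 to 11604849, in the order Ms4a7, Ms4a4a, Ms4a4c, Ms4a4b, Ms4a6c, Ms4a6b and Ms4a6d. Ms4a7 and Ms4a6d are on the minus strand and the other 5 on the plus strand. RefSeq promoter sequences were found for 6 of the 7 members, Ms4a6d being the exception. The 250 bases before the RefSeq start are shown for the 2 pairs of paralogs with the longest runs of bases in common, to let the shared stretches be seen. Capitals mark the PU.1 core GAGGAA, PU.1 being the lineage factor of macrophages and microglia, and the interferon-type repeat GAAANNGAA, on either strand. The sequences are from GRCm38.p6, plus strand, at chr19:11518309-11518558, chr19:11469118-11469367, chr19:11443308-11443557 and chr19:11407411-11407660 in turn.
Ms4a6b: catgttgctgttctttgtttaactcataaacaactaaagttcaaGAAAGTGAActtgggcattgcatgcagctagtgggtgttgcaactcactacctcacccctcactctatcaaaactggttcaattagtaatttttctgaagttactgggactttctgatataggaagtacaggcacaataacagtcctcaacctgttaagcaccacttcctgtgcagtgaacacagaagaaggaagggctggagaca
Ms4a6c: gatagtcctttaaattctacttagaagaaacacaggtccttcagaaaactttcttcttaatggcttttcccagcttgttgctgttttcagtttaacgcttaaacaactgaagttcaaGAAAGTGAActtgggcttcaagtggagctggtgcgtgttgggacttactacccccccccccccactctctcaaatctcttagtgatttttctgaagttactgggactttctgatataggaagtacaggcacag
Ms4a4b: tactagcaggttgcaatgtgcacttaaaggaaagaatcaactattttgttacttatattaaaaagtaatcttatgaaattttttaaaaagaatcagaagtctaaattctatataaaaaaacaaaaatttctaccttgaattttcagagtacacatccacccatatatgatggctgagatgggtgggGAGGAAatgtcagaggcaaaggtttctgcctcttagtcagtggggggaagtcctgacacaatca
Ms4a4c: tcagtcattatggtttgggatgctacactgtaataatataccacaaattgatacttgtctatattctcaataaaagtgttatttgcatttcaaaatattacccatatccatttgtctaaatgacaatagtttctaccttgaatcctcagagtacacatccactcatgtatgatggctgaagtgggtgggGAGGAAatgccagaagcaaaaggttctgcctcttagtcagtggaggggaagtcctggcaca
Ms4a6b and Ms4a6c hold the same form of the repeat, GAAAGTGAA, and share an unbroken run of 48 bases, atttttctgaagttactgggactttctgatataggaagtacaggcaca. Over the whole 250 bases they agree at only 45.9% of the columns of a global alignment, within the range of the other pairs. Ms4a4b and Ms4a4c hold the PU.1 core in matching surroundings and agree at 69% of the columns, more than any other pair of member promoters.

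Over the 300 bases around each start, the interferon-type repeat was found in 4 of the 7 member promoters (1 each of Ms4a6b and Ms4a6c and both starts of Ms4a7), beside 8.56% of the 32851 promoters of this length. The PU.1 core was found in 3 of the 7 (Ms4a4b, Ms4a4c and 1 start of Ms4a7), beside 28.3% of all promoters, and the AP-1 motif TGANTCA in 2 (Ms4a4b and Ms4a7), beside 7.81%. ACGTG, 1 form of the core bound by HIF, a factor the study examined, was in none of the 7, beside 19.6% of all promoters. The E-box CACGTG, which contains ACGTG, was also in none, beside 7.15%. The other form of the HIF core, GCGTG, was not counted, and it stands in the Ms4a6c sequence above. These are matches of letters in a short window and say nothing of binding. Of all stretches of 50 bases in the members' annotated transcripts, those also found in transcripts of other genes made up 10.54% for Ms4a6c, 8.19% for Ms4a4c, 3.57% for Ms4a6b, 2.54% for Ms4a6d, 2.40% for Ms4a4b, 0.306% for Ms4a7 and 0% for Ms4a4a. The shares fell to at most 1.66% at 100 bases, so counts of the members rest mostly on sequence of their own, and the small shared part of Ms4a6b with Ms4a6c and of Ms4a4b with Ms4a4c remains uncertain.

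Divided by the length of annotated exons, Ms4a6d was the most abundant of the 7 in unselected WT microglia. Its level per kb was 25.6 ± 3.99 (SD, n = 3), followed by Ms4a4a at 17.2 ± 6.57, Ms4a6b at 10.51 ± 1.76, Ms4a6c at 9.97 ± 1.98 and Ms4a7 at 4.11 ± 1.23. Ms4a4c reached 1.32 ± 0.177 per kb and Ms4a4b 0.0842 ± 0.0240. The lengths pool the exons of all annotated transcripts, from 836 bases for Ms4a4a to 8780 for Ms4a4b, so this order depends on them. Before division, the means in unselected WT were 47.1 for Ms4a6b, 44.4 for Ms4a6d and 14.3 for Ms4a4a. For comparison, Trem2 was at 161 ± 2.76 per kb and P2ry12, a marker of homeostatic microglia, at 828 ± 75.7, so the members ranged from modestly expressed to barely detected in these sorts. Ms4a6b had 158 to 4613 reads per library, Ms4a4b 1 to 443 and Ms4a4c 0 to 479.

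**Figure D1:**
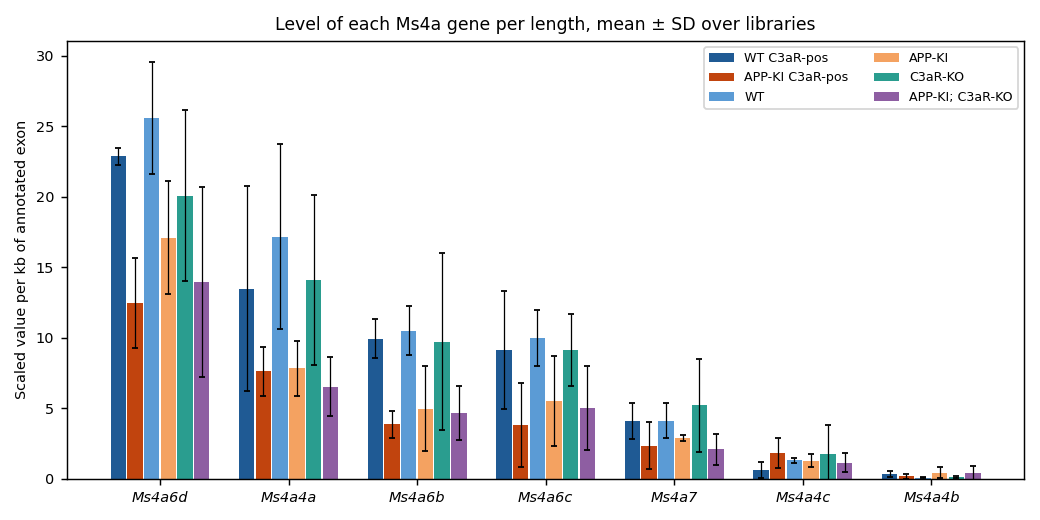
Mean scaled value per kb of annotated exon (y axis) of each Ms4a gene (x axis) in the 6 conditions, with bars for the SD over 3 libraries, or 5 in APP-KI; C3aR-KO. Ms4a6d stands highest in unselected WT at 25.6 per kb and Ms4a4b lowest at 0.0842.

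When the 6 conditions were ordered by mean for each of the 7 genes, none of the 35 pairs of neighbours in the order had ranges apart. Neighbours in such an order are the conditions closest by mean, so their overlap was likely beforehand. It does not bear on conditions further apart in the order, and no share over all genes was taken. The order itself was similar for Ms4a4a, Ms4a6b, Ms4a6c and Ms4a6d, for which the 3 conditions without the APP-KI allele had higher means than the 3 with it. Ms4a7 followed the same split, with means of 18.3, 18.3 and 23.2 without the allele and of 10.4, 12.95 and 9.29 with it. Ms4a4b and Ms4a4c did not follow it.

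**Figure D2:**
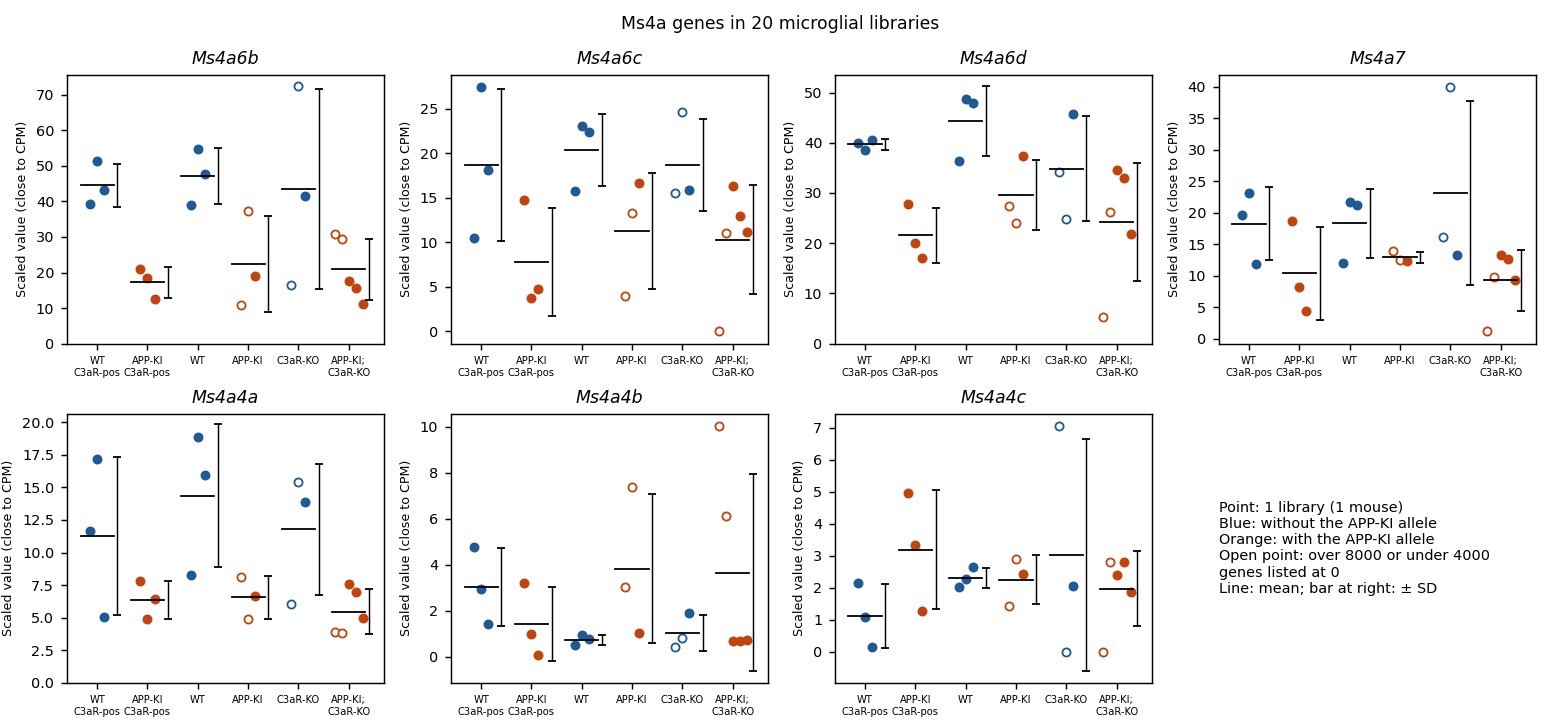
Scaled value (y axis, close to CPM) of the 7 Ms4a genes in every library, by condition (x axis), with the mean as a line and the SD as a bar. Open points are the 6 libraries that stood apart by their number of genes listed at 0, and the APP-KI groups lie below the WT groups for Ms4a6b in the libraries labelled C3aR-positive.

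The first question was how the members differed between APP-KI and WT in the libraries labelled C3aR-positive. Ms4a6b and Ms4a6d fell in APP-KI, and the other 5 did not pass the test. Ms4a6b was at 39.4, 51.3 and 43.1 in WT and at 20.9, 18.5 and 12.4 in APP-KI, with no overlap. The difference was −1.34 ± 0.24 (SE) on the log2(value + 1) scale, a fold of 2.53 (limma adjusted p = 0.00376). Ms4a6d, a gene of macrophages, was at 40.0, 38.5 and 40.5 in WT and at 27.7, 20.04 and 17.1 in APP-KI. These groups were also apart, with a difference of −0.87 ± 0.22, a fold of 1.83 (adjusted p = 0.0187). Among all 12315 genes tested 22.7% were called in this comparison, 9.7% of those tested were called lower, and the groups did not overlap for 43.5%, so 2 of 7 called and 2 of 7 apart are not unusual shares.

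Among the other members, Ms4a6c was at 10.4, 27.5 and 18.1 in WT and at 14.8, 3.77 and 4.80 in APP-KI. The groups overlapped through APP-KI replicate 1, and the difference of −1.28 ± 0.51 had an adjusted p of 0.0991. Ms4a7 showed the same layout, at 19.7, 23.2 and 11.9 against 18.7, 8.24 and 4.40 (−0.91 ± 0.47, adjusted p = 0.190). Ms4a4a was at 11.7, 17.1 and 5.02 against 7.81, 4.90 and 6.45, and the groups overlapped through WT replicate 3 (−0.61 ± 0.46, adjusted p = 0.349). Ms4a4b was at 4.79, 2.93 and 1.42 against 3.205, 0.997 and 0.0786, the last resting on 1 read (−0.87 ± 0.63, adjusted p = 0.336). Ms4a4c, which interferon induces in myeloid cells, was the only member with a positive difference, at 2.15, 1.07 and 0.142 in WT and 4.96, 3.34 and 1.26 in APP-KI (0.99 ± 0.60, adjusted p = 0.2499). The median over the 7 members was −0.87, beside −0.17 over all genes tested.

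The 2 calls did not rest equally firmly. Ms4a6b stayed called with each of the 6 libraries left out in turn, by edgeR (−1.26, adjusted p = 0.00497) and by DESeq2 (−1.23, adjusted p = 5.97e-05). Ms4a6d had an adjusted p of 0.0619, 0.0588 and 0.0658 without WT replicates 1, 2 and 3 and of 0.0527 without APP-KI replicate 2, with differences between −0.89 and −0.84. Without APP-KI replicate 1, Ms4a6c (−1.81, adjusted p = 0.0252) and Ms4a7 (−1.40, adjusted p = 0.0469) also passed, giving 4 called members in a fit that called 20.6% of all genes. Median ratio scaling moved the median of all genes from −0.17 to −0.03 and the calls over all genes from 1602 higher and 1195 lower to 1846 and 605. Relative to the median of all genes, Ms4a6b lay at −1.17 and Ms4a6d at −0.71, and both stayed called under that scaling.

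Markers of border-associated macrophages moved with these genes. Of the 12 markers 6 fell, among them Mrc1, the mannose receptor (−1.33 ± 0.30, adjusted p = 0.0120), Cd163, a haemoglobin scavenger receptor (−1.38 ± 0.23, adjusted p = 0.00275) and Lyve1, a hyaluronan receptor (−1.76 ± 0.47, adjusted p = 0.0252), and all 12 had a difference below 0, with a median of −1.40. Their summed level was 1890 to 2288 in WT and 651 to 1002 in APP-KI, and no marker was at 0 in all libraries of either group. Of this sum, Stab1 alone held 1240.5 to 1493 in WT and 399 to 584 in APP-KI. Of 10 microglial markers 5 fell, with a median of −0.55, and of 13 interferon-stimulated genes in the files 9 rose, with a median of 1.38. Over all genes tested, 13% rose and 9.7% fell. Of 8 B cell markers 3 were tested, with a median of 0.01. Cd22 rose (1.45 ± 0.19, adjusted p = 0.000824) and made up most of their summed level, which was 29.6 to 46.8 in WT and 73.5 to 90.6 in APP-KI, whereas Cd79b fell (−1.33 ± 0.43, adjusted p = 0.0494) and Pax5 and Blk were listed at 0 in all 6 libraries. Of 12 markers of neurons, astrocytes, oligodendrocytes and endothelial cells 9 were tested, of which 3 rose and 1 fell, with a median of −0.12. Their summed level was 129.9 to 171 in WT and 356 to 484 in APP-KI, and the endothelial genes Flt1 (3.75 ± 0.30, adjusted p = 6.53e-05) and Pecam1 (−2.09 ± 0.36, adjusted p = 0.00302) moved in opposite directions. The part of cell composition in the fall of Ms4a6b and Ms4a6d was not tested.

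**Figure D3:**
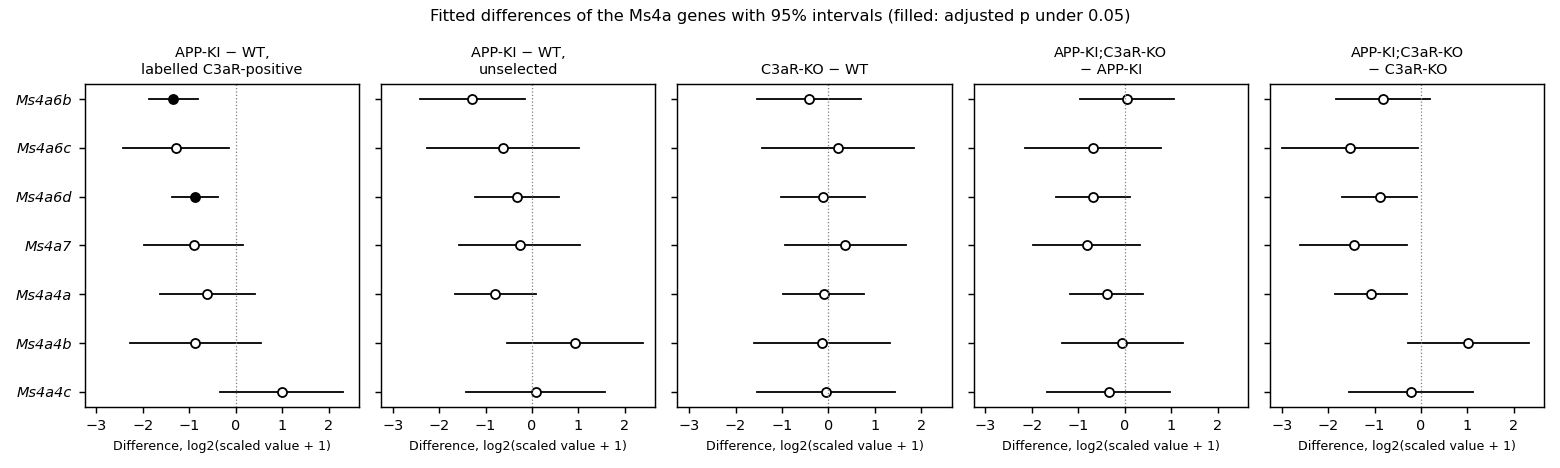
Fitted difference on the log2(scaled value + 1) scale (x axis) with its 95% interval for each Ms4a gene (y axis) in 5 comparisons, filled where the adjusted p was under 0.05. Only Ms4a6b and Ms4a6d in the libraries labelled C3aR-positive are filled.

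The same genotypes were compared in microglia not selected on C3aR, in a fit over all 14 such libraries with a term for library series. No member was called by limma, edgeR or DESeq2, beside 4.14% of all 12410 genes, and 1 member (Ms4a6b) had an unadjusted limma p under 0.05, beside 12.4% of all genes. Ms4a6b was at 39.0, 54.7 and 47.6 in WT and at 10.7, 37.2 and 19.1 in APP-KI, a difference of −1.28 ± 0.53 with an adjusted p of 0.289. Ms4a4a was at 8.24, 18.9 and 15.9 in WT and at 8.12, 4.88 and 6.66 in APP-KI, a difference of −0.79 ± 0.41 with an adjusted p of 0.495. Both were lower in every APP-KI library than in any WT library, and Ms4a4b was higher in every one, at 3.06, 7.37 and 1.04 against 0.518, 0.938 and 0.762 (0.92 ± 0.68, adjusted p = 0.745). The groups were apart for 29.3% of all genes tested, beside 3 of the 7 members.

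Ms4a6d was at 36.4, 48.7 and 48.0 in WT and at 27.5, 24.04 and 37.4 in APP-KI, which overlapped through APP-KI replicate 6 (−0.32 ± 0.42, adjusted p = 0.929). Ms4a7 was at 12.002, 21.7 and 21.3 against 13.98, 12.5 and 12.4, with WT replicate 4 at the APP-KI level (−0.27 ± 0.61, adjusted p = 0.979). Ms4a6c was at 15.8, 23.1 and 22.4 against 4.01, 13.3 and 16.6 (−0.63 ± 0.77, adjusted p = 0.920). Ms4a4c was close to 2 in both groups, at 2.01, 2.29 and 2.63 against 1.41, 2.91 and 2.42 (0.08 ± 0.70, adjusted p = 0.995). The median over the 7 members was −0.32, beside −0.01 over all genes.

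Within library series 24 the difference in Ms4a6b was −0.92 (2 APP-KI libraries against 1 WT) and within series 26 it was −1.37 (1 against 2). For Ms4a4a the 2 values were −0.34 and −1.26, and for Ms4a7 they were 0.13 and −0.75. Without the 4 libraries with over 8000 genes at 0, Ms4a4a was called (−1.01, adjusted p = 0.00473), in a fit that called 27.9% of all genes. Without all 6 libraries that stood apart, Ms4a6b (−1.37, adjusted p = 0.00789), Ms4a4a (−1.26, adjusted p = 0.00985) and Ms4a7 (−0.75, adjusted p = 0.0395) were called and Ms4a4b fell below the filter on low values, in a fit that called 19.7% of all genes. That last fit holds 1 APP-KI library, which was assumed to vary like the other groups, and since WT replicate 4 was then alone in its series the fit rests on series 26 only. Ms4a6b was lower in APP-KI in each of these settings, but it passed the threshold only without the libraries that stood apart by genes at 0 in either direction.

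Border macrophage markers again moved the same way, with 4 of 12 lower, none higher and a median of −1.36, Mrc1 among the 4 (−1.69 ± 0.24, adjusted p = 0.000674). Their summed level was 1890 to 3205 in WT and 726 to 929 in APP-KI, and no marker was at 0 in all libraries of a group. Of this sum, Stab1 alone held 1367 to 1793 in WT and 407 to 606 in APP-KI. Of 10 microglial markers 2 fell and all 10 had a difference below 0, with a median of −0.67. Of 13 interferon-stimulated genes in the files none passed and 4 had a difference below 0, with a median of 0.22. Over all genes tested, 2.22% rose and 1.93% fell. Of the B cell markers 6 were tested and none passed, with a median of 0.41 and a sum of 28.6 to 40.4 in WT and 41.4 to 101 in APP-KI. Of the markers of neurons, astrocytes, oligodendrocytes and endothelial cells 1 of 9 tested, Flt1, rose (4.26 ± 0.25, adjusted p = 1.1e-07), with a median of 0.56 and sums of 134.9 to 196 and 351 to 457. The part of these cells in the lower values of Ms4a6b and Ms4a4a was not tested.

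**Figure D4:**
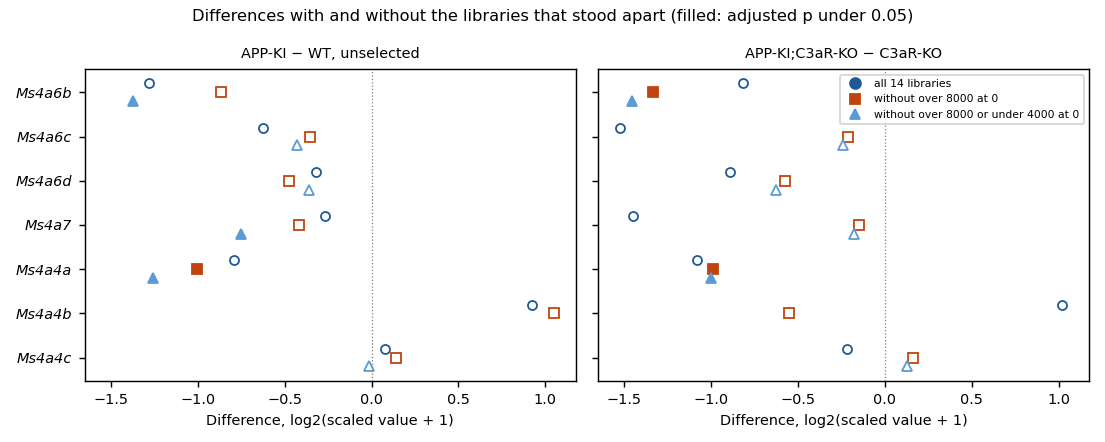
Difference on the log2(scaled value + 1) scale (x axis) of each Ms4a gene (y axis) for APP-KI against WT and for APP-KI; C3aR-KO against C3aR-KO, with all 14 unselected libraries and without those that stood apart, filled where the adjusted p was under 0.05. Ms4a6b and Ms4a4a are filled in both comparisons without all 6 such libraries, in fits that held 1 APP-KI and 1 C3aR-KO library, and Ms4a4b has no value there.

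Whether the APP-KI difference depended on the sort was tested as a difference of differences over all 20 libraries. No member was called, and no gene of 12377 (0%) was called by limma, with 585 genes at an unadjusted p under 0.05, 0 called by edgeR and 3 by DESeq2. For Ms4a6b the 2 differences were close, with a difference between them of −0.14 and a 95% interval from −1.52 to 1.24, which leaves room for a change in either direction. The widest gap was that of Ms4a4b, at −2.11 (interval −4.26 to 0.03, adjusted p = 0.818), and the highest value that of Ms4a4c, at 1.04 (interval −0.90 to 2.98, adjusted p = 0.826). The labelled C3aR-positive libraries were also set against the unselected ones within a genotype. In WT 1 gene of 12377 (0.00808%), C3ar1, was called by limma, 1 by edgeR and 7 by DESeq2, and without the 4 libraries with over 8000 genes at 0 limma called 4 higher and 69 lower. No member was called, the members lying between −0.76 (Ms4a4c) and 1.14 (Ms4a4b). In APP-KI no gene (0%) was called by limma, with 237 at an unadjusted p under 0.05, 0 called by edgeR and 8 by DESeq2, and the members lay between −0.98 (Ms4a4b) and 0.28 (Ms4a4c). No member had an unadjusted p under 0.05 in these 3 comparisons or was called in them by edgeR or DESeq2.

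The effect of losing C3ar1 was then examined, first without the APP-KI allele. By limma 1 of 12410 genes (0.00806%), C3ar1, was called between C3aR-KO and WT (−2.39 ± 0.27, adjusted p = 0.00338). edgeR also called 1 gene and DESeq2 called 9, and without C3aR-KO replicate 3 limma called 1 higher and 20 lower. The members lay between −0.42 (Ms4a6b) and 0.37 (Ms4a7), with a median of −0.10, beside −0.03 over all genes. The spread within C3aR-KO was wide, and its replicates 1 and 2, which stood apart by genes at 0, lay at opposite ends for Ms4a6b and Ms4a4c. Ms4a6b was at 16.3, 72.5 and 41.6 in the 3 replicates, Ms4a7 at 16.2, 40.0 and 13.4, and Ms4a4c at 7.06, 0 and 2.05. Ms4a7 changed sign to −0.50 without the 4 libraries with over 8000 genes at 0 and to −0.65 (adjusted p = 0.190) without all 6 that stood apart, both values resting on 1 C3aR-KO library.

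In the presence of the APP-KI allele, C3ar1 was again the 1 gene of 12410 (0.00806%) that limma called when APP-KI; C3aR-KO was set against APP-KI (−1.95 ± 0.24, adjusted p = 0.00971). Ms4a6b was at 30.8, 29.3, 17.5, 15.7 and 11.2 in the 5 APP-KI; C3aR-KO libraries, a range that covers most of that of APP-KI. Its difference was 0.05, with a 95% interval from −0.96 to 1.05, and it was −0.47 without the 4 libraries with over 8000 genes at 0 and −0.37 without all 6 that stood apart. Ms4a7 was at 1.20, 9.82, 13.4, 12.7 and 9.34, and its difference of −0.81 had an interval from −1.97 to 0.34. Ms4a6d was at 5.34, 26.2, 34.5, 32.9 and 21.9 (−0.68, interval −1.49 to 0.12), and Ms4a6c at 0, 11.1, 16.3, 12.997 and 11.1 (−0.69, interval −2.15 to 0.78). In all 3 the lowest value was that of replicate 1, the library with 8939 genes listed at 0, and without it Ms4a6c was at 0.19, Ms4a7 at −0.20 and Ms4a6d at −0.21. Ms4a4a was at 3.94, 3.80, 7.58, 6.99 and 4.98 (−0.39, interval −1.17 to 0.39), Ms4a4b at 10.02, 6.13, 0.707, 0.706 and 0.752 (−0.05, interval −1.35 to 1.25) and Ms4a4c at 0, 2.80, 2.38, 2.81 and 1.86 (−0.35, interval −1.68 to 0.98). Within library series 26 the differences of the 7 members ran from −0.37 (Ms4a6b) to −0.04 (Ms4a4a and Ms4a4c), with 3 libraries against 1.

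The difference between the 2 effects of C3ar1 loss, with and without the APP-KI allele, was tested in the same fit. No gene of 12410 (0%) was called by limma, with 203 at an unadjusted p under 0.05, 0 called by edgeR and 1 by DESeq2. The members lay between −1.18 (Ms4a7, 95% interval −2.96 to 0.59) and 0.47 (Ms4a6b, interval −1.08 to 2.01). Both changed sign without the 4 libraries with over 8000 genes at 0, to 0.27 and −0.47, and without all 6 that stood apart, to 0.57 and −0.080. The first setting left 1 C3aR-KO library, and the second left 1 C3aR-KO and 1 APP-KI library. No member had an unadjusted p under 0.05 in these comparisons of C3ar1 loss or was called in them by edgeR or DESeq2.

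APP-KI was also compared with its control where both lacked C3ar1, APP-KI; C3aR-KO against C3aR-KO. No member was called, beside 6.93% of all genes, though 4 of 7 had an unadjusted limma p under 0.05, beside 20.4% of all genes, and 6 had a difference below 0. The lowest adjusted p was that of Ms4a4a (−1.08 ± 0.36, adjusted p = 0.0976), which DESeq2 called (−1.25, adjusted p = 0.0305) and edgeR did not (−1.26, adjusted p = 0.129). Ms4a7 (−1.45 ± 0.54, adjusted p = 0.137), Ms4a6c (−1.52 ± 0.68, adjusted p = 0.225) and Ms4a6d (−0.89 ± 0.37, adjusted p = 0.193) had the other unadjusted p-values under 0.05. Ms4a6b was at −0.82 ± 0.47 (adjusted p = 0.354), Ms4a4c at −0.22 ± 0.62 (adjusted p = 0.883) and Ms4a4b at 1.02 ± 0.61 (adjusted p = 0.375). The median over the members was −0.89, beside −0.03 over all genes.

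Which members led this comparison changed with the libraries. Without C3aR-KO replicate 1, Ms4a4a was called by limma (−1.36, adjusted p = 0.0414). Without the 4 libraries with over 8000 genes at 0, Ms4a4a (−0.99, adjusted p = 0.0131) and Ms4a6b (−1.34, adjusted p = 0.0288) were called in a fit that called 31.3% of all genes. Without all 6 that stood apart, the called members were again Ms4a4a (−1.002, adjusted p = 0.0108) and Ms4a6b (−1.45, adjusted p = 0.00297), in a fit that called 40.5% of all genes and held 1 C3aR-KO library. Within series 26, Ms4a7 differed by −0.18 and Ms4a6c by −0.24, so the larger values of both over all libraries came from series 24, where they differed by −2.44 and −2.57. Over all 12410 genes tested, 369 fell in this comparison. Of the 12 border macrophage markers 4 fell, with a median of −0.97, and their summed level was 1602 to 2716 in C3aR-KO and 636 to 953 in APP-KI; C3aR-KO. Of this sum, Stab1 alone held 1153 to 2018 and 338 to 542 in turn. The part of these markers in the values of Ms4a4a and Ms4a6b was not tested.

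Ms4a4b, the member known from T and NK cells, was low in most libraries and high in a few. Its 3 highest values, 10.02, 7.37 and 6.13, were in APP-KI; C3aR-KO replicate 1, APP-KI replicate 5 and APP-KI; C3aR-KO replicate 2, all of series 24. The summed level of 12 T and NK cell markers was 82.2, 117 and 59.3 in these libraries and 5.25 to 26.9 in all others but C3aR-KO replicate 2. That library had a sum of 100 and yet Ms4a4b at only 0.802. In the 5 unselected libraries with the APP-KI allele that did not have such a sum, Ms4a4b was at 0.706 to 1.04 in 4 and at 3.06 in APP-KI replicate 4, which had a sum of 26.9. The high sums were not even over the markers or free of the library problems. In APP-KI; C3aR-KO replicate 1 the marker Gzmb alone held 68.076 of the 82.2, and 4 of the 12 markers were listed at 0. APP-KI replicate 5 was the library with only 107 genes listed at 0. The next highest Ms4a4b value, 4.79 in WT replicate 1 labelled C3aR-positive, came with a sum inside the range of 5.25 to 26.9. The part of T or NK cells in the Ms4a4b values was not tested.

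**Figure D5:**
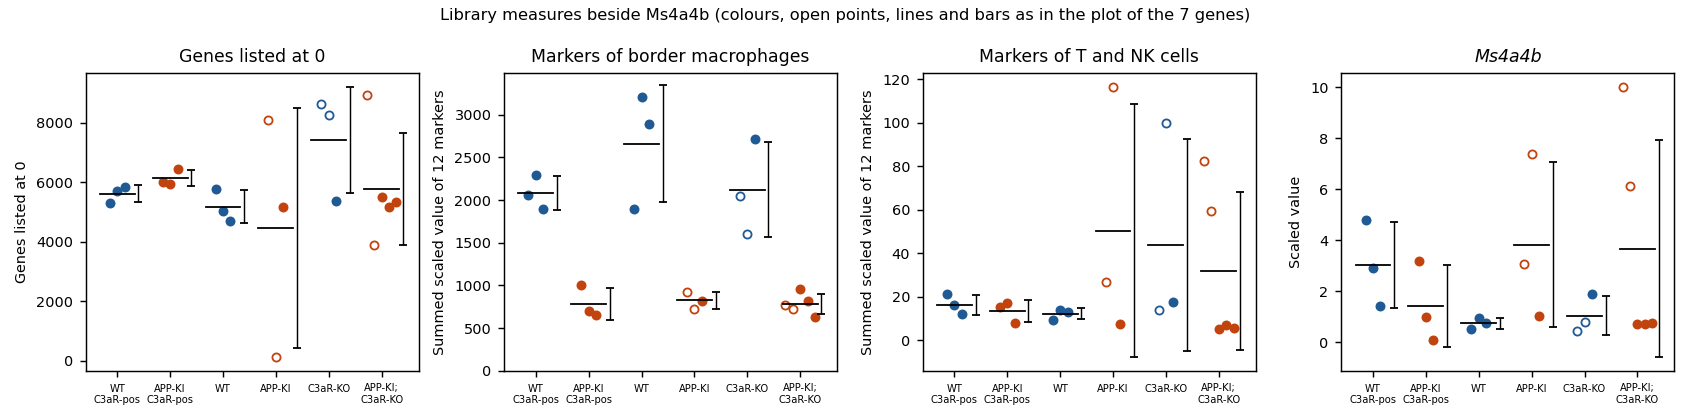
Genes listed at 0, the summed scaled values of 12 border macrophage markers and of 12 T and NK cell markers, and Ms4a4b (y axes) in every library by condition (x axes). Ms4a4b reaches 6.13 or more in 3 open-point libraries, whose T and NK marker sums are 59.3 to 117, and the border macrophage sum is at most 1002 in each library with the APP-KI allele. Stab1 is the largest part of the border macrophage sum in every condition, and Gzmb is the largest part of the T and NK sum in APP-KI; C3aR-KO replicate 1.

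The 7 members did not vary as 1 block. Over the 20 libraries, Pearson's r of log2(value + 1) was 0.87 between Ms4a6c and Ms4a6d, 0.86 between Ms4a6c and Ms4a7 and 0.79 between Ms4a6d and Ms4a7, and it was 0.82, 0.81 and 0.70 for the deviations from the condition means. Ms4a6b went less with these 3, at 0.29 to 0.42, and at −0.29 to 0.05 for the deviations. Over the 14 libraries that did not stand apart, however, Ms4a6b was at 0.82 with Ms4a6d, 0.71 with Ms4a7 and 0.64 with Ms4a6c, so its place in or out of the group depended on 6 libraries. These values describe points that share a library and its depth.

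Genes like each member across the 20 libraries were sought among 8853 or 8854 candidates of a mean of at least 10. That limit left out Ms4a4a, Ms4a4b and Ms4a4c, at means of 8.92, 2.43 and 2.28, and every Ms4a gene outside the members. Of the Ms4a genes only Ms4a6b, Ms4a6c, Ms4a6d and Ms4a7 remained, a very small part of the candidates. The genes most like each member were none of these Ms4a genes. For Ms4a6b they were Prr14 (r = 0.89, and 0.80 for the deviations), Crim1 (0.89, 0.78) and Nrm (0.88, 0.80). For Ms4a6c they were Siah1a (0.94, 0.92) and Enpp4 (0.93, 0.92), and for Ms4a6d Fam110a (0.94, 0.90), Cryba4 (0.93, 0.91) and Zbtb2 (0.93, 0.92). Ms4a7 was most like C2cd2 (0.93, 0.90), Rarg (0.92, 0.92) and Zfp942 (0.90, 0.90), and Ms4a4a most like C4b (0.86, 0.84), Jdp2 (0.86, 0.75) and Ehd1 (0.84, 0.73). Ms4a4b was most like Zfp40 (0.81, 0.81), Adgrl1 (0.80, 0.84) and Rai1 (0.79, 0.83), and Ms4a4c most like Bak1 (0.87, 0.90), Cbarp (0.86, 0.89) and Dhx58, an interferon-induced RNA sensor (0.86, 0.86). Over the 14 libraries that did not stand apart, r with these genes ran from 0.61 (Rai1 with Ms4a4b) to 0.95 (Rarg with Ms4a7), and it was 0.74, 0.73 and 0.67 for the 3 genes most like Ms4a4c.

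Of the other MS4A family genes, Ms4a14 was the only Ms4a gene outside the members with reads in all 20 libraries. It was at 12.8, 8.89 and 7.69 in WT and at 8.17, 2.91 and 1.10 in APP-KI among the libraries labelled C3aR-positive (−1.33 ± 0.55, adjusted p = 0.110), and at 6.72, 9.73 and 9.39 against 1.29, 7.20 and 4.96 in the unselected ones (−0.93 ± 0.64, adjusted p = 0.705). Ms4a1, the B cell antigen CD20, reached 7.60 and was listed at 0 in 7 libraries, while the other 10 Ms4a genes of the list stayed at or under 1.93 and at 0 in 9 to 18 libraries. The related genes Tmem176a and Tmem176b ran from 23.3 to 146 and from 162 to 450. Of the 14 family genes in the files 3 were tested between APP-KI and WT in the libraries labelled C3aR-positive and 4 in the unselected ones. None passed in either, Tmem176a being at 0.80 ± 0.26 (adjusted p = 0.0527) and Tmem176b at 0.58 ± 0.20 (adjusted p = 0.0608) in the first.

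Among the partners of TREM2 and dectin-1, Trem2 (1.20 ± 0.14, adjusted p = 0.000354) and its signalling adaptor Tyrobp (1.95 ± 0.16, adjusted p = 6.53e-05) rose in APP-KI in the libraries labelled C3aR-positive. Syk, the kinase below both receptors (−0.68 ± 0.11, adjusted p = 0.00242), Card9, an adaptor of dectin-1 signalling (−0.52 ± 0.13, adjusted p = 0.0163), and Adam10, a protease that sheds TREM2 (−0.39 ± 0.11, adjusted p = 0.0282), fell, and Plcg2 (−0.32 ± 0.11) and Adam17 (0.23 ± 0.16) did not pass. In the unselected libraries Tyrobp rose (1.16 ± 0.30, adjusted p = 0.0433), Syk (−0.76 ± 0.18, adjusted p = 0.0230) and Adam10 (−0.70 ± 0.18, adjusted p = 0.0390) fell, and Trem2 was at 0.86 ± 0.24 (adjusted p = 0.0656). Of the 7 partners in the files, 2 rose and 3 fell in the first comparison, beside 13% and 9.7% of all genes tested. In the second 1 rose and 2 fell, beside 2.22% and 1.93%. Clec7a, which encodes dectin-1, was not analysed here.

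Of 42 protein-coding genes within 500 kb of the outermost Ms4a genes, 23 were tested in the libraries labelled C3aR-positive, where 6 rose and 1 fell in APP-KI, beside 13% and 9.7% of all genes, with a median of 0.18. In the unselected libraries 24 were tested, 3 rose and 1 fell, beside 2.22% and 1.93% of all genes, with a median of 0.06.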

How the data were processed

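Bulk RNA-seq of sorted mouse microglia, 20 libraries each taken as 1 mouse, was re-analysed. The study aligned reads to mm10 with TopHat, and the submitters' processing notes name cutadapt, TopHat2, featureCounts and DESeq2 with no versions. The deposited signal is, as its values show, the read count of a gene divided by the library's 75th percentile of counts, and not an FPKM, whatever the files are called. Every value came out as a whole number of reads within 0.05. Values were multiplied by 35.2, a constant from the median ratio of that percentile to the library total, which gives units close to CPM ("scaled values").

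The main test was that of limma (3.58.1), run on log2 of the scaled value with a pseudocount of 1, its prior variance following the mean level, over genes with a mean of at least 1, with Benjamini-Hochberg adjustment over all genes tested and a threshold of 0.05. Libraries labelled C3aR-positive had their own fit, the 14 unselected libraries shared 1 fit with library series as a term, and comparisons across sorts used all 20. A fold on this scale understates the change of low genes. edgeR and DESeq2 on the recovered reads, another pseudocount, other filters, another scaling, the study's stricter threshold and libraries left out were alternatives, and the fits were tested on simulated data. The sample titles number the replicates and name no mouse, and each replicate was taken as a separate mouse. All 7 members were named, with the members of 2 fixed lists and the 3 genes most like each member, of which 1 is not reported here. The members and lists were chosen with earlier results of these data known, and the settings that leave out libraries by their genes at 0 were added after the data were seen. Lengths, positions and transcripts were from GENCODE M21, promoters from RefSeq (GRCm38.p6), and promoters were aligned with Biopython.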

Additional observations from a re-analysis of the deposited data

Results flagged for a closer look

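In APP-KI; C3aR-KO, the 1 condition with 5 libraries, replicate 1 lay far below the others for 4 of the 7 members on the log2(value + 1) scale used in the fits. Its value was 0 for Ms4a6c, beside 3.595 for the next lowest library, and 0 for Ms4a4c, beside 1.51. It was 1.14 for Ms4a7, beside 3.37, and 2.66 for Ms4a6d, beside 4.52. The gap to the next library made up 0.874, 0.785, 0.824 and 0.746 of the whole range in turn, above Dixon's critical value of 0.710 for 5 libraries, which chance passes in about 1 in 20 groups. On the scaled values themselves none of the 7 members passed it. This library had 8939 genes listed at 0, and the part of that in these values was not tested.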

How the results depend on the processing

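Over the 9 comparisons, 163 of 177 alternative counts of called members stayed within 1.5 times the main count. In every comparison but APP-KI against WT in the libraries labelled C3aR-positive, the main count was 0. Such a count could only stay by being 0 again, in main fits that mostly called at most 1 gene. The tally therefore does not measure stability. Between APP-KI and WT in the libraries labelled C3aR-positive, 2 members were called, 0 at the study's threshold of 0.0005, and 1 to 4 with 1 library left out. In unselected microglia the count went from 0 to 1 without the libraries with over 8000 genes at 0 and to 3 without those with over 8000 or under 4000, or with series 26 only, and it stayed 0 with 1 library left out. For APP-KI; C3aR-KO against C3aR-KO it went from 0 to 1 with DESeq2, to 2 without the libraries that stood apart in either way or with series 26 only, and ran from 0 to 1 with 1 library left out. The series 26 setting repeats the same libraries, so it is no independent support. In the last comparison, each setting without the libraries that stood apart held only 1 C3aR-KO library.

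Of 709 alternative values of single members 46 changed sign, all of values that were not called. All members were followed where APP-KI was compared with its control and where APP-KI; C3aR-KO was compared with APP-KI. In the other comparisons only the members with the lowest and the highest value were followed. Sign changes of members nearer 0 in those comparisons are therefore not in the tally. Between APP-KI and WT (unselected), Ms4a4c went to −0.063 with the replicate block, −0.052 without the series term and −0.013 without the 6 libraries or in series 26. Between C3aR-KO and WT, Ms4a6b went to 0.00052 without the libraries over 8000, and Ms4a7 to −0.50 without these and −0.65 without all 6 or in series 26. With APP-KI; C3aR-KO set against APP-KI, Ms4a4b went to 0.24 with only these groups, Ms4a4c to 0.14 and Ms4a6c to 0.27 with the replicate block, and Ms4a6b to −0.039 by edgeR, −0.047 by DESeq2, −0.40 with the replicate block, −0.020 without the series term, −0.47 without the libraries over 8000 and −0.37 without all 6 or in series 26. For APP-KI; C3aR-KO against C3aR-KO, Ms4a4b went to −0.55 and Ms4a4c to 0.16 without the libraries over 8000, and Ms4a4c to 0.13 without all 6 or in series 26. In the difference of the C3ar1 loss effects, Ms4a6b went to −0.47 and −0.080 and Ms4a7 to 0.27 and 0.57 in these 2 settings, and between sorts in APP-KI, Ms4a4b went to 0.034 without all 6.

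With 1 library left out, signs changed within these ranges, among the same followed members only. Between APP-KI and WT (unselected), Ms4a4c ran from −0.12 to 0.21 and Ms4a7 from −0.43 to 0.023. Between C3aR-KO and WT, Ms4a6b ran from −0.83 to 0.16 and Ms4a7 from −0.14 to 1.06. With APP-KI; C3aR-KO set against APP-KI, Ms4a4b ran from −0.47 to 0.29, Ms4a4c from −0.61 to 0.086, Ms4a6b from −0.39 to 0.43 and Ms4a6c from −1.12 to 0.19. For APP-KI; C3aR-KO against C3aR-KO, Ms4a4c ran from −0.90 to 0.56. In the difference of the C3ar1 loss effects, Ms4a6b ran from −0.055 to 0.84, and between sorts in APP-KI, Ms4a4c ran from −0.025 to 0.68. The cause of these changes was not tested.

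Same-numbered libraries correlated by −0.37 to 0.28 in their deviations (4 of 11 pairs over 0.1), so the numbers were not taken to pair mice. Over all genes, the block took the calls between APP-KI and WT (unselected) from 275 higher and 239 lower to 92 and 19. With the replicate block the count stayed at 2 in the libraries labelled C3aR-positive and at 0 in the other 5 comparisons that could be blocked. The lowest counts in a library were 1 read for Ms4a4b and 0 for Ms4a4c and Ms4a6c. With 3 libraries in most groups, intervals stayed wide, and only APP-KI; C3aR-KO, with 5 libraries, was large enough to be searched for outlying libraries.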
